A study of Mus musculus with 4 samples.

Results

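Iron uptake and storage in mouse liver natural killer (NK) cells was followed through 7 genes: Trf, Tfrc, Steap3, Fth1, Ftl1, Aco1 and Ireb2. They were taken by symbol from the 21025 gene rows of each library, and all 7 had a row. The comparison was of TRAIL+ NK cells (2 libraries) with CD49b+ NK cells (2 libraries), each from freshly taken livers of C57BL/6 mice with no treatment named. Both kinds of cell lacked the T-cell receptor beta chain and carried NK1.1 and NKp46. The TRAIL+ cells had the death ligand TRAIL but not CD49b on their surface, and the CD49b+ cells the reverse. The labels name no age, sex or pooling of the mice. Nothing states that the libraries of a subset came from separate mice, so SDs and p-values reflect library-to-library spread that may be technical. The series title places these sorts in work on Nfil3 and NK cell development.

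Cells take up iron mainly as transferrin, the plasma iron carrier encoded by Trf, which binds the transferrin receptor (Tfrc) and is carried into endosomes. There the reductase Steap3 turns ferric into ferrous iron, which can then leave the endosome. Iron that is not used at once is stored in ferritin, a shell of heavy (Fth1) and light (Ftl1) chains, of which the heavy chain oxidises iron and the light chain helps form its mineral core. The iron regulatory proteins IRP1 (Aco1) and IRP2 (Ireb2) bind RNA hairpins called iron-responsive elements when iron is scarce. Binding near the start of ferritin mRNA blocks its translation, and binding behind the coding part of Tfrc mRNA protects it from decay. Trf is made mostly by hepatocytes, so in cells sorted from liver its reads can also come from hepatocyte RNA.

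The hairpins are shown because they are the sequence feature that ties the ferritin and receptor genes to the regulators. Annotated mouse transcripts (GENCODE M21, build GRCm38) were searched on the transcript strand for a stretch of 27 bases with a lower stem of 5 pairs, an unpaired C, an upper stem of 5 pairs and the loop CAGTGN, where N is not G. G-U pairs were allowed, with 1 mismatch in the lower stem and 0 in the upper. Capitals mark the loop, and the sequences are written as DNA, 5′ to 3′.
Fth1: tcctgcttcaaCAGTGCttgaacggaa
Ftl1: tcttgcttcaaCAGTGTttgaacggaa
Tfrc, site 1: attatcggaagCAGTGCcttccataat
Tfrc, site 2: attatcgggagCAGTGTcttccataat
Tfrc, site 3: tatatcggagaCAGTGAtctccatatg
Tfrc, site 4: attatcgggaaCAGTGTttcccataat

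The Fth1 site lies in the 5′ UTR at chr19:9982733-9982759 (plus strand) and the Ftl1 site in the 5′ UTR at chr7:45459780-45459806 (minus strand). The Tfrc sites lie in its 3′ UTR on the plus strand, at chr16:32631220-32631246, chr16:32631599-32631625, chr16:32631664-32631690 and chr16:32631711-32631737. These positions are of GRCm38, a later build than the mm9 used by the authors. Of the 7 genes, 3 held the shape in a UTR, against 0.0274% of 21875 protein-coding genes for the 5′ UTR and 0.0274% for the 3′ UTR. The shape is the consensus of an element already known in ferritin and Tfrc mRNA, so these 3 matches are no test. Fth1 and Ftl1 used the 1 mismatch allowed in the lower stem, and the Tfrc sites had 0. Trf, Steap3, Aco1 and Ireb2 had 0 matches in a UTR, which says only that these letters were not found there. Among 86 searched genes of a wider iron list, Slc40a1 and Alas2 also held it, both in the 5′ UTR. A match describes the sequence, and binding of a regulator was not measured in these data.

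The libraries held 3786497 to 4232967 reads behind the RPKM values (reads per length of gene and size of library), as worked out from the steps of those values. The sort gates served as a check of the labels: Tnfsf10, which encodes TRAIL, ranged from 189 to 208 RPKM in TRAIL+ and from 6.94 to 7.26 in CD49b+ libraries, and Itga2, which encodes CD49b, from 1.55 to 5.26 and from 37.0 to 52.1. Ncr1 (NKp46) and Klrb1c (NK1.1) stood at 901 to 1253 RPKM in all 4 libraries. Replicate 1 of each subset stood apart in carrying more RNA of other liver cells, with summed hepatocyte markers of 32.6 (TRAIL+) and 46.6 RPKM (CD49b+), against 8.26 and 3.68 RPKM in the libraries numbered 2.

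The 7 genes were chosen by symbol with their RPKM in the TRAIL+ and CD49b+ libraries, the contrast described here, already in view, so their differences are given as descriptions with no test. Trf was higher in both TRAIL+ libraries, Steap3 was nearly missing from them, and Fth1 was moderately higher, whereas Tfrc, Ftl1, Aco1 and Ireb2 had overlapping groups. All 7 passed the filter on low values, and Steap3 passed it through its CD49b+ libraries alone. In a fit across 10047 genes (limma on log2(RPKM + 1)), 2 of the 7 passed the adjusted p threshold of 0.05, Trf as higher and Steap3 as lower in TRAIL+ cells, beside 8.62% of all genes tested, from which nothing is read here. Groups did not overlap in 3 of the 7 and in 46.8% of all genes tested. In bulk libraries, fewer cells that express a gene and less RNA of it per cell cannot be told apart.

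**Figure D1:**
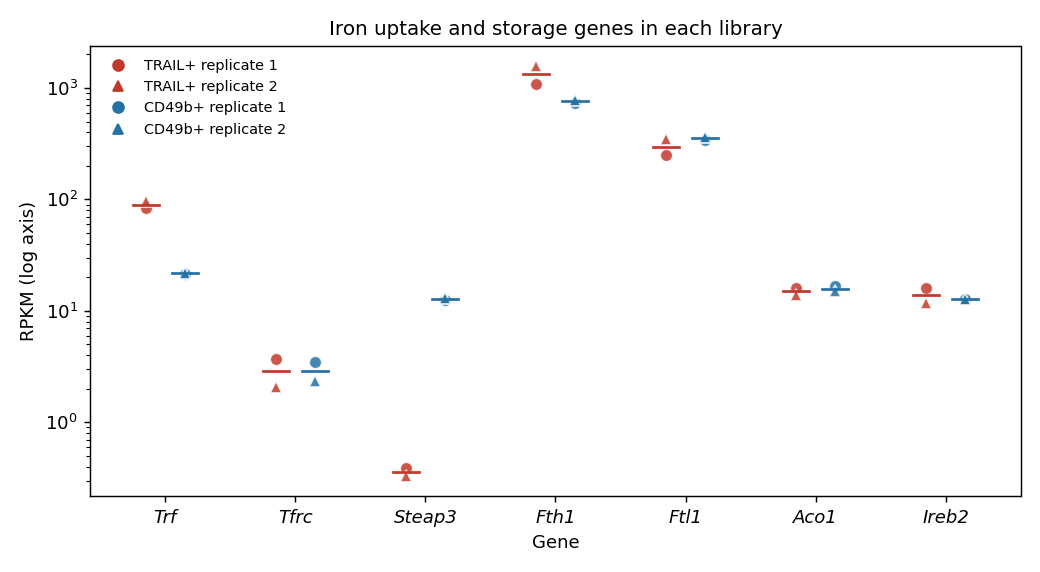
RPKM (log axis) of the 7 genes in each of the 4 libraries, TRAIL+ in red and CD49b+ in blue, circles for replicate 1 and triangles for replicate 2, with a bar at each group mean. Trf and Fth1 lie higher and Steap3 lower in both TRAIL+ libraries, and the points of Tfrc, Ftl1, Aco1 and Ireb2 overlap.

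Trf, the plasma carrier, stood at 83.1 and 96.9 RPKM in TRAIL+ replicates 1 and 2 and at 21.2 and 22.1 RPKM in CD49b+ replicates 1 and 2. The lowest TRAIL+ value lay well above the highest CD49b+ value, and the libraries of a subset lay close together. Group means were 90.0 ± 9.75 and 21.7 ± 0.609 RPKM (SD, n = 2 each), a 4.16-fold difference and a log2 difference of 2.00 ± 0.16 (SE, on log2(RPKM + 1)). The counts behind it were 1657 reads in TRAIL+ and 415 in CD49b+ cells, a ratio of reads per library total of 4.15 (3.72 to 4.63, exact 95% limits of counting error). By level, Trf ranked 882 and 838 among all gene rows of the TRAIL+ libraries, and 3640 and 3521 in the CD49b+ libraries. This placed the gene for a liver-made plasma protein among the more abundant transcripts of the TRAIL+ sort.

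Because Trf also marks hepatocytes, the hepatocyte markers were read beside it. Alb, the albumin gene, stood at 12.7 and 1.92 RPKM in TRAIL+ replicates 1 and 2 and at 14.8 and 0.865 RPKM in CD49b+ replicates 1 and 2. Serpina1b, an antitrypsin gene, followed at 2.58 and 0.554 RPKM in TRAIL+ and 7.43 and 0.356 RPKM in CD49b+ cells. Both were higher in the library numbered 1 of each subset, a pattern seen in 16 of the 25 hepatocyte markers on the list. In 3 of the list both TRAIL+ libraries lay above both CD49b+ libraries, as they did for Trf. Groups did not overlap, in either direction, in 46.8% of all genes tested. The 3 markers were Fga, Kng1 and the apolipoprotein gene Apoa1, chosen after their values were seen. Fga rests on 5 and 1 reads in TRAIL+ and 1 and 1 in CD49b+ replicates 1 and 2. Kng1 rests on 1 and 1 against 1 and 0 reads. For both, the lower TRAIL+ value and the higher CD49b+ value each come from 1 read, so library size alone sets them apart. Apoa1 stood at 2.48 and 1.07 RPKM in TRAIL+ and 0.717 and 0.257 RPKM in CD49b+ libraries (limma adjusted p = 0.250). All 25 were above 0 in at least 1 library, 8 were above 0 in every library, 8 were tested and 0 were called in either direction (limma). Trf exceeded Alb in every library, by 6.57 and 50.3 times in TRAIL+ and by 1.43 and 25.5 times in CD49b+ cells. In the libraries with the fewer hepatocyte reads, those numbered 2, Trf stood at 96.9 (TRAIL+) against 22.1 RPKM (CD49b+), a log2 difference of 2.08, beside Alb at 1.92 against 0.865 RPKM and a hepatocyte sum of 8.26 against 3.68 RPKM, both also higher in the TRAIL+ library. The part of hepatocyte RNA in the Trf difference was not tested.

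Markers of other cells that handle much iron varied by replicate number, and some macrophage markers separated the subsets, in both directions. Summed Kupffer cell and monocyte markers were 112 and 29.4 RPKM in TRAIL+ replicates 1 and 2 and 144 and 16.4 RPKM in CD49b+ replicates 1 and 2. The lysozyme gene Lyz2 stood at 81.9, 9.21, 122 and 8.87 RPKM in that order, and without it the sums were 29.8 and 20.2 RPKM in TRAIL+ and 21.4 and 7.55 RPKM in CD49b+ libraries. Cd68, a lysosomal protein gene of macrophages, stood at 5.09 and 3.13 RPKM in TRAIL+ and was higher in CD49b+ libraries at 7.69 and 5.77 RPKM. In 5 of the 14 markers above 0, both TRAIL+ libraries lay above both CD49b+ libraries, and in 1, Cd68, below. Groups did not overlap, in either direction, in 46.8% of all genes tested. The 5 were Clec4f, Timd4, Cd5l, C1qa and C1qc, chosen after their values were seen. Timd4 rests on 4 reads in TRAIL+ and 0 in CD49b+ libraries. C1qa, a complement gene of macrophages, stood at 5.21 and 4.38 RPKM in TRAIL+ and 1.31 and 0 RPKM in CD49b+ libraries (limma adjusted p = 0.0549). Clec4f, a Kupffer cell lectin gene, stood at 0.918 and 1.32 against 0.196 and 0 RPKM. C1qc stood at 4.65 and 2.25 RPKM in TRAIL+ and 2.24 and 0.241 RPKM in CD49b+ libraries. Its lower TRAIL+ value rests on 9 reads and its higher CD49b+ value on 10, so library size alone sets them apart. C1qb, also on this list and named after its values were seen, had overlapping groups. It held 20 and 14 reads in TRAIL+ and 18 and 1 in CD49b+ libraries. Of 15 such markers 14 were above 0 in at least 1 library, and Marco was at 0 in all. On this list 8 were tested and 0 were called (limma). Cd163, a macrophage gene outside this list and named after its values were seen, was higher in CD49b+ libraries. It stood at 0.109 and 0 RPKM in TRAIL+ and 0.839 and 1.13 RPKM in CD49b+ libraries. Summed erythroid markers ran 92.6 and 31.7 RPKM in TRAIL+ and 102 and 5.22 RPKM in CD49b+ cells. Nearly all of that was the globin gene Hbb-b1, while Slc4a1, Epb4.2, Gata1 and Rhag were at 0 in all 4 libraries, and 4 of 10 erythroid markers were above 0. On the endothelial and stellate list 7 of 12 were above 0, led by Pecam1 at 41.4 to 52.7 RPKM, which leukocytes also express, with Stab2 at 0 to 0.120 RPKM and Clec4g, Lyve1, Dcn, Col3a1 and Reln at 0. The part of these cells in the values of the 7 genes was not tested beyond the values given here.

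**Figure D2:**
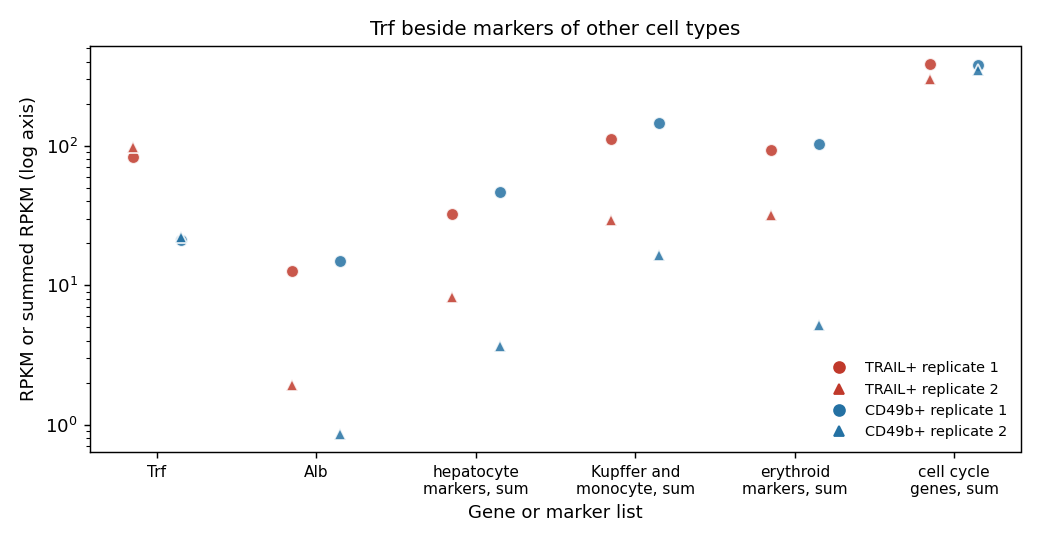
RPKM of Trf and Alb and summed RPKM of marker lists (log axis) in each library, with TRAIL+ in red, CD49b+ in blue, circles for replicate 1 and triangles for replicate 2. Trf divides by subset (83.1 and 96.9 against 21.2 and 22.1), and Alb and the hepatocyte, Kupffer cell and erythroid sums are highest in the circles of each subset.

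Tfrc, the transferrin receptor gene, was low in both subsets. It stood at 3.69 and 2.09 RPKM in TRAIL+ replicates 1 and 2 and at 3.45 and 2.37 RPKM in CD49b+ replicates 1 and 2. The CD49b+ values fell between the TRAIL+ values, and the higher value of each subset came from its replicate 1. Means were 2.89 ± 1.13 and 2.91 ± 0.762 RPKM (SD, n = 2 each), with a log2 difference of -0.03 ± 0.30 (SE). The 113 TRAIL+ and 118 CD49b+ reads give a ratio of reads, CD49b+ over TRAIL+, of 1.00 (0.770 to 1.31, exact 95% limits). Only 14.0% of tested genes had a lower mean level over the 4 libraries. Summed levels of 21 cell cycle genes, which dividing cells raise along with Tfrc, were 381 and 298 RPKM in TRAIL+ and 375 and 345 RPKM in CD49b+ libraries. Each sum was likewise higher in replicate 1, as were 14 of the 21 genes in both subsets. Among them the replication genes Pcna and Mcm6 were the most abundant, and 0 of 18 tested were called (limma). Mcm6 stood at 64.1 to 84.9 RPKM. Pcna was lower in replicate 1, at 78.4 and 93.7 RPKM in TRAIL+ and 86.8 and 96.8 RPKM in CD49b+ replicates 1 and 2. In every library the carrier exceeded its receptor, Trf over Tfrc being 22.6 and 46.4 in TRAIL+ and 6.15 and 9.31 in CD49b+ replicates 1 and 2.

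Steap3, which encodes the endosomal ferrireductase, showed the widest difference of the 7. It stood at 0.386 and 0.332 RPKM in TRAIL+ replicates 1 and 2 and at 12.5 and 13.0 RPKM in CD49b+ replicates 1 and 2. These rest on 5 and 4 reads in the TRAIL+ libraries and on 169 and 163 in the CD49b+ libraries, so the gene was close to the limit of detection in TRAIL+ cells. The means of 0.359 ± 0.038 and 12.8 ± 0.337 RPKM (SD, n = 2 each) differed 35.6-fold, and the ratio of reads was 35.5 (18.5 to 78.3, exact 95% limits). On the log2(RPKM + 1) scale, which understates changes of low genes, the difference was -3.34 ± 0.21 (SE), and with a pseudocount of 0.1 it was -4.81. Beside these values, the erythroid sum was 92.6 and 31.7 RPKM in TRAIL+ and 102 and 5.22 RPKM in CD49b+ replicates 1 and 2. The part of erythroid RNA in Steap3 was not tested. Related metalloreductase genes were hardly detected in either subset: Steap1 and Steap2 were at 0 in all 4 libraries, Steap4 had 0.078 RPKM in TRAIL+ replicate 1 and 0 elsewhere, and Cybrd1, the most abundant of the class, was at 0 in TRAIL+ and at 0.045 and 0.049 RPKM in CD49b+ libraries.

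The ferritin genes were the most abundant of the 7, and the heavy chain gene was higher in TRAIL+ cells while the light chain gene was not. Fth1 stood at 1086 and 1561 RPKM in TRAIL+ replicates 1 and 2 and at 732 and 784 RPKM in CD49b+ replicates 1 and 2. The groups did not overlap, and the TRAIL+ libraries lay further from each other than the CD49b+ libraries did. Means were 1323 ± 336 and 758 ± 37.0 RPKM (SD, n = 2 each), a 1.75-fold difference with a log2 difference of 0.78 ± 0.27 (SE). Its 8989 TRAIL+ and 5380 CD49b+ reads leave little counting error (ratio of reads 1.74, exact 95% limits 1.68 to 1.80), and the gap between the TRAIL+ libraries, 3847 reads in replicate 1 and 5142 in the smaller replicate 2, is the larger error. It ranked 35 and 36 among all gene rows in the TRAIL+ and 51 and 60 in the CD49b+ libraries.

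Ftl1 stood at 249 and 347 RPKM in TRAIL+ replicates 1 and 2 and at 342 and 366 RPKM in CD49b+ replicates 1 and 2. The higher TRAIL+ value fell between the CD49b+ values, so the groups overlapped. Means were 298 ± 69.1 and 354 ± 17.3 RPKM (SD, n = 2 each), with a log2 difference of -0.27 ± 0.22 (SE). Both ferritin genes were lower in TRAIL+ replicate 1 than in replicate 2, and within each subset their ratio varied less between the libraries than either level did. Fth1 over Ftl1 was 4.36 and 4.50 in TRAIL+ and 2.14 and 2.14 in CD49b+ replicates 1 and 2.

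Ferritin genes have processed copies elsewhere in the mouse genome, and the labels do not say how reads that fit several places were counted. Ftl2-ps, a light chain copy with a row of its own, held 1 and 0 reads in TRAIL+ and 3 and 2 in CD49b+ libraries, and Ftmt, the mitochondrial ferritin gene, was at 0 in all.

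**Figure D3:**
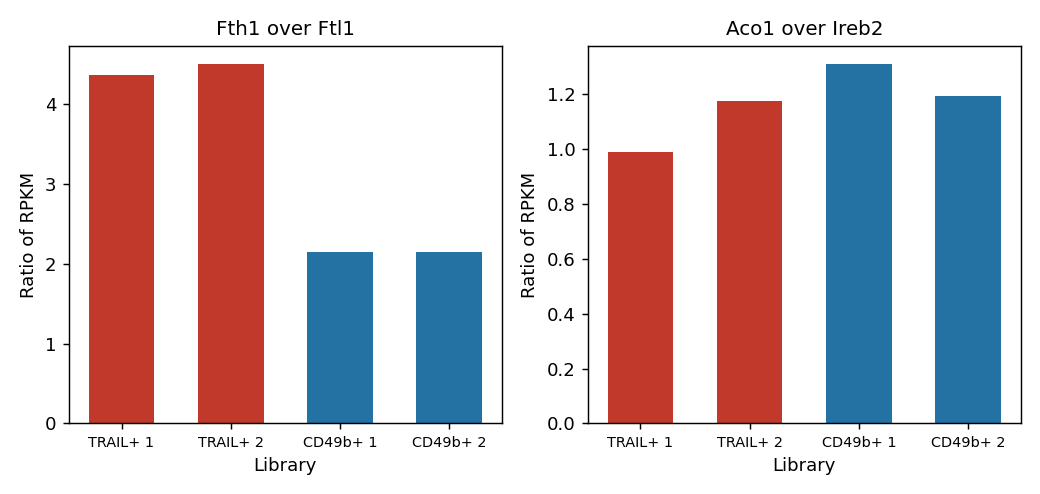
Ratio of RPKM within each library, Fth1 over Ftl1 on the left and Aco1 over Ireb2 on the right, with TRAIL+ bars in red and CD49b+ bars in blue. The ferritin ratio is 4.36 and 4.50 in TRAIL+ against 2.14 and 2.14 in CD49b+ libraries, and the regulator ratio lies between 0.986 and 1.31 in all 4.

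The genes of the iron regulatory proteins had values that overlapped between the subsets. Aco1, whose product is IRP1 and also the cytosolic aconitase, stood at 16.0 and 13.9 RPKM in TRAIL+ replicates 1 and 2 and at 16.6 and 15.1 RPKM in CD49b+ replicates 1 and 2. Means were 14.9 ± 1.43 and 15.9 ± 1.05 RPKM (SD, n = 2 each), with a log2 difference of -0.08 ± 0.18 (SE), and the groups overlapped. Its 511 TRAIL+ and 563 CD49b+ reads gave a ratio, CD49b+ over TRAIL+, of 1.06 (0.939 to 1.20, exact 95% limits).

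Ireb2, whose product IRP2 is removed by degradation when iron is plentiful, stood at 16.2 and 11.9 RPKM in TRAIL+ replicates 1 and 2 and at 12.7 and 12.7 RPKM in CD49b+ replicates 1 and 2. The CD49b+ libraries were nearly equal and fell between the TRAIL+ libraries. Means were 14.0 ± 3.05 and 12.7 ± 0.00554 RPKM (SD, n = 2 each), with a log2 difference of 0.12 ± 0.21 (SE). Aco1 over Ireb2 was 0.986 and 1.17 in TRAIL+ and 1.31 and 1.19 in CD49b+ replicates 1 and 2. Both regulators stood near the middle of expressed genes, with 53.8% (Aco1) and 49.5% (Ireb2) of tested genes below them.

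By mean RPKM, a scale per gene length, the order in TRAIL+ cells was Fth1, Ftl1, Trf, Aco1, Ireb2, Tfrc and Steap3. In CD49b+ cells it was Fth1, Ftl1, Trf, Aco1, Steap3, Ireb2 and Tfrc. In TRAIL+ cells Aco1 and Ireb2 had overlapping values, and in CD49b+ cells Steap3 at 12.5 and 13.0 RPKM bracketed Ireb2 at 12.7 in both, so these neighbours did not differ beyond their spread. All other neighbours in either order were apart in both libraries. Levels between genes depend on the lengths the authors used. Those worked out from the values, with the GENCODE length setting the multiple, were 4340 bases for Aco1 and 3184 for Steap3. GENCODE transcripts had 3832 and 2752 bases.

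The rest of the iron pathway was read from a list of 90 further genes, all with a row. It was drawn up by role with earlier results of these data known, and 82 were above 0 and 64 were tested. Abcg2, which encodes an exporter of porphyrins and haem among other compounds, was the 1 gene that fell in TRAIL+ cells, 0 rose and 63 did not pass (limma, adjusted over all 10047 genes), beside 3.86% of all genes tested for lower and 4.76% for higher calls. Their median log2 difference was 0.05, and that of all genes tested 0.00. At an unadjusted p under 0.05, 4 were higher and 3 lower, beside 11.1% and 8.85% of all genes tested, and voom on the recovered reads called 0 higher. Groups did not overlap in 33 of the 64, near the 46.8% of all genes tested. Without TRAIL+ replicate 1, Fdx1, Ciapin1, Glrx5 and Bola3 of the iron-sulfur cluster machinery were called higher and Zc3h12a lower, besides Abcg2.

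Abcg2 stood at 3.92 and 6.43 RPKM in TRAIL+ replicates 1 and 2 and at 22.4 and 24.4 RPKM in CD49b+ replicates 1 and 2. The groups were far apart, at means of 5.17 ± 1.77 and 23.4 ± 1.42 RPKM (SD, n = 2 each), a 4.53-fold difference. Its log2 fold change was -2.01 ± 0.25 (SE, limma adjusted p = 0.00845), and over 11 alternatives the adjusted p ran from 0.000143 to 0.0390.

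Of the uptake genes other than Trf and Tfrc, 11 of 14 were above 0 and 3 were tested, of which 0 were called (limma). Slc39a14, a transporter that can carry iron not bound to transferrin, was the most abundant, at 14.8 and 12.7 RPKM in TRAIL+ and 8.96 and 11.2 RPKM in CD49b+ libraries (log2 fold change 0.42 ± 0.20, limma adjusted p = 0.350). Slc11a2, which encodes DMT1, the exporter of ferrous iron from the endosome, was named after its values were seen: it stood at 10.8 and 11.7 RPKM in TRAIL+ and 5.56 and 6.88 RPKM in CD49b+ libraries. Its groups did not overlap, but the test was not passed (log2 fold change 0.77 ± 0.20, limma adjusted p = 0.0890). The second transferrin receptor gene Tfr2 was at 0 in both TRAIL+ libraries and CD49b+ replicate 2.

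Export and systemic control were little represented. Slc40a1, which encodes ferroportin, the exporter of iron from cells, was the most abundant of its class at 0.725 and 1.09 RPKM in TRAIL+ and 0.488 and 0 RPKM in CD49b+ libraries, and no gene of the class reached the filter. In the hepcidin axis Tmprss6, a hepatocyte protease gene, led at 0.536 and 0 RPKM in TRAIL+ and 1.18 and 1.03 RPKM in CD49b+ libraries (log2 fold change -0.76 ± 0.30, limma adjusted p = 0.240). Hamp, the hepcidin gene, was at 0 but for 1 read in CD49b+ replicate 1, which was also the library with the highest hepatocyte sum. Tmprss6 did not follow that sum: it held 13 reads in CD49b+ replicate 2, where the sum was lowest at 3.68 RPKM. In TRAIL+ replicate 2, where the sum was 8.26 RPKM, it held 0. The part of hepatocyte RNA in these genes was not tested.

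Partners of storage and of the regulators did not pass the test. Pcbp1, an iron chaperone that loads ferritin, stood at 214 and 243 RPKM in TRAIL+ and 248 and 267 RPKM in CD49b+ libraries (log2 fold change -0.17 ± 0.17, limma adjusted p = 0.718). Of 10 genes that control the regulatory proteins or transcription and decay of iron genes, 0 were called (limma). Skp1a, a subunit of the ubiquitin ligase that degrades IRP2, was the most abundant at 76.4 to 114 RPKM, and Fbxl5, its iron-sensing subunit, stood at 19.7 to 23.6 RPKM over the 4 libraries. Zc3h12a, named after its values were seen, encodes Regnase-1, a nuclease that degrades Tfrc mRNA. It stood at 5.42 and 4.70 RPKM in TRAIL+ and 12.9 and 8.86 RPKM in CD49b+ libraries (log2 fold change -0.96 ± 0.24, limma adjusted p = 0.0819).

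Genes that use iron were expressed throughout and did not divide the subsets by this test. Of 25 genes of iron-sulfur cluster assembly and its client enzymes, all 25 were tested and 0 were called, with log2 fold changes from -0.51 (Iba57) to 0.77 (Ciapin1). The most abundant, Fam96a, stood at 65.6 to 99.3 RPKM. Of 6 genes of mitochondrial iron import, 0 were called (limma). Of 9 genes of haem synthesis, 0 were called, and Urod led at 27.2 to 41.5 RPKM. Alas2, the erythroid form of the first enzyme, followed the replicate number, at 8.39 and 2.12 RPKM in TRAIL+ and 8.19 and 0.511 RPKM in CD49b+ replicates 1 and 2. Slc48a1, a haem transporter, was the most abundant of the breakdown and transport genes at 32.2 to 39.8 RPKM.

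**Figure D4:**
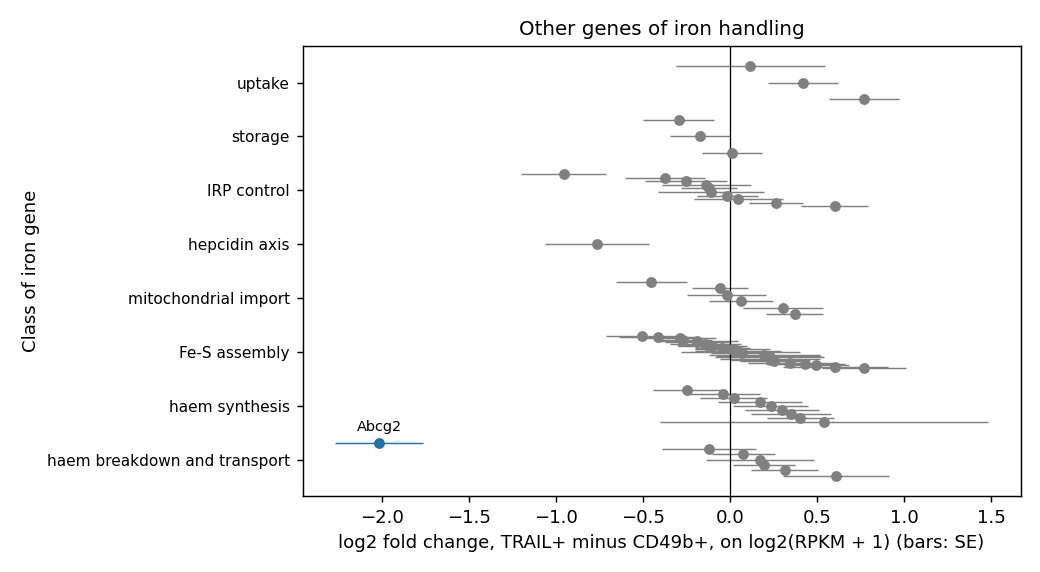
Log2 fold change of the 64 tested genes of the wider iron list, TRAIL+ minus CD49b+ on log2(RPKM + 1), by class, with bars for the SE. Abcg2 (blue) at -2.01 is the gene past the threshold, and the 63 others (grey) lie between -0.96 and 0.77.

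Genes whose levels were nearest to each of the 7 were found by Euclidean distance over the 4 log2(RPKM + 1) values, with all tested genes as candidates. Over so few libraries this measures like level and like contrast, and it carries no test. For Trf they were Apol7e (distance 0.37) and Armc7 (0.39). Apol7e stood at 79.7 and 75.6 RPKM in TRAIL+ and 21.5 and 23.2 RPKM in CD49b+ libraries. For Steap3 they were P2ry14 (0.36), a receptor for nucleotide sugars, and Angpt1 (0.48), an angiopoietin gene, the latter at 0.060 and 0.129 RPKM in TRAIL+ and 12.0 and 11.6 RPKM in CD49b+ libraries. For Fth1 they were Gimap4 (0.26), a lymphocyte GTPase gene, and Srgn (0.30), the gene of the granule proteoglycan serglycin. Ftl1 lay nearest to Eif5a (0.14) and the ribosomal protein gene Rps2 (0.17), both lower in TRAIL+ replicate 1 than in the other 3 libraries, as Ftl1 was. Tfrc lay nearest to Ighmbp2 (0.12) and Ms4a6c (0.15), Aco1 to Dennd1b (0.10) and 2510002D24Rik (0.10), and Ireb2 to Fam3a (0.12) and Ccdc43 (0.12).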

How the data were processed

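PolyA RNA of sorted cells was sequenced in 4 libraries. The deposited values are RPKM per the file headers, made by the authors from reads that, per the submitters' processing notes, were aligned to mm9 with TopHat 1.4.1. How reads were counted, on which annotation and whether by strand is not stated, and a gene and its overlapping or antisense partner can therefore share reads. Groups came from the sample titles. Gene names follow RefSeq on GRCm38.p6 (20661 rows by accession, 191 by symbol, 65 by synonym, 108 kept as in the file).

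Whole reads were worked out from the RPKM steps, with a length that makes all libraries whole within a relative tolerance of 1e-06. This held for 100% of 13681 rows above 0. Counting intervals are exact binomial 95% intervals and cover counting error only.

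The test took the 10047 genes that reached 1 RPKM in 2 or more libraries, on log2(RPKM + 1), and used limma 3.58.1 under R 4.3.3 (eBayes with a trend, subset as the term, 2 residual and 3.51 prior degrees of freedom). P-values were adjusted by Benjamini-Hochberg over all of them, with a threshold of 0.05. The code of the fit was also run on simulated reads with a fixed spread and no deviation shared by same-numbered libraries. The present data differ in that respect, so the run does not give the error rate here. With 2 against 2 an exact permutation p cannot go below 0.333, so none is given. The members and lists were chosen with earlier results of these data known. The rule for named genes took the 7 members, up to 4 called genes a direction and the most abundant gene of each class of the wider list, the 2 nearest genes of each member, the 2 most abundant markers of each list and the 4 gate genes. Further genes of the wider list (Slc11a2, Zc3h12a, Fbxl5, Tfr2, Hamp, Alas2, Steap1, Steap2, Steap4, Ftmt and those given as ends of a range or as calls of an alternative) were named after their values were seen. For 4 genes of the marker lists no row was found. Alternatives were another pseudocount, other filters, quantile normalization, no trend, voom with a trimmed mean of M-values on the recovered reads, the replicate number as a block, and each library left out. Some genes taken by the rule or the marker lists are not reported here.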

Additional observations from a re-analysis of the deposited data

How the results depend on the processing

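The differences of Trf (log2 1.89 to 2.11), Fth1 (0.52 to 1.04), Ftl1 (-0.50 to -0.03) and Steap3 (-5.02 to -3.31) kept their sign over 12 alternatives each. Among them was the comparison of the TRAIL+ 2 and CD49b+ 2 libraries alone, which was chosen after seeing the data. Many of the 12 could not change a sign, so the count is no support. The filters, the fit without a trend and the replicate block left these differences as they were. Trf, Fth1 and Steap3 had groups that did not overlap. For them another pseudocount, a library left out or those 2 libraries alone could not reverse the sign either. Steap3 moved by more than the spread of its libraries with a pseudocount of 0.1 (-4.81), with voom (-5.02) and in those 2 libraries alone (-3.40), and Ireb2 in the last (-0.09). The sign of Tfrc (-0.33 to 0.27), Aco1 (-0.17 to 0.01) and Ireb2 (-0.09 to 0.33) changed in 2, 1 and 2 alternatives. With a library left out, calls over all genes ran from 245 to 777 higher and 198 to 763 lower, and in the wider iron list from 0 to 4 higher and 1 to 2 lower. Without a filter on low values 2 genes of that list were lower, Cd163 being the second. Abcg2 kept its call in all 11 alternatives run on it. The replicate numbers are not said to mark a shared mouse or day, and deviations of same-numbered libraries correlated at 0.56 over 10047 genes. With the replicate block, 1049 genes were higher and 833 lower against 478 and 388 without it, and in the iron list 4 were higher (Slc11a2, Keap1, Iscu, Ciapin1) and 2 lower (Zc3h12a, Abcg2). The cause of these shifts was not tested. Depth limits Steap3 in TRAIL+ cells, at 9 reads in all.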
